A study of Mus musculus with 9 samples.

Results

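The genes described here are the protein-coding mouse genes whose symbol begins with Kcn followed by subfamily letters and a number, the series of names given to potassium channel pore subunits and to the accessory subunits that assemble with them. Members were chosen by symbol alone, by matching the Ensembl identifiers of the count table to GENCODE M21, which gave 93 genes in 20 subfamilies among the 48526 genes of the table. The cells were neural stem cells (NSCs) isolated from the subependymal zone (SEZ) of adult C57BL/6 mice and grown as neurospheres, with no genetic modification stated in the sources used here. The 0 h group was undifferentiated NSCs, and the 1 h and 6 h groups were taken 1 h and 6 h after removal of EGF from the medium while FGF was kept, on an adhesive substrate. Each group had 3 replicates, and all 9 cultures had therefore been expanded in growth factors before any withdrawal. Replicates carry numbers in the labels, and the sources do not state whether a number stands for an animal, a culture or a day. With replicate number in the model, the p-values measure the spread left after number and time are fitted. Without it they measure the spread between samples of a time point. Both spreads may be technical.

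Potassium channels let K+ leave or enter a cell along its gradient and thereby set the membrane potential. Voltage-gated (Kv) channels, encoded by Kcna to Kcnd, Kcnh, Kcnq and the modifier genes Kcnf, Kcng, Kcns and Kcnv, open on depolarisation. Inward rectifiers (Kir, Kcnj) hold the potential near rest and carry K+ uptake in glia, tandem pore domain channels (K2P, Kcnk) give the background leak, and Kcnma, Kcnn, Kcnt and Kcnu channels respond to intracellular Ca2+ or Na+ or to pH. Accessory subunits (Kcnab, Kcne, Kcnip, Kcnmb) alter their trafficking and gating. By class, the members comprised 40 Kv pore or modifier subunits, 16 accessory subunits, 15 inward rectifiers, 14 K2P subunits and 8 Ca2+- or Na+-activated subunits.

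The measurement was the number of mRNA-seq reads per gene, with between 65871454 and 105592597 counts per library. At least 1 read was counted for 90 members, and 67 passed the expression filter and were tested among 18858 genes. Levels are given as CPM (reads of a gene scaled to a fixed library size), in the order of replicates 1, 2 and 3. The labelled cell type was checked with marker genes. NSC markers, Nes, Vim and Fabp7 among them, summed to between 4700.1 and 7917.6 CPM over the 9 libraries, microglial markers to between 0.122 and 0.526 CPM with Itgam at 0 counts, and Gfap averaged 1.31 CPM at 0 h. Markers of other cell types moved between 0 h and 6 h in both directions. Of the 6 neuronal markers, 3 rose (Tubb3, Elavl3 and Rbfox3) and 0 fell, with sums of 937.6 to 1481.4 CPM at 0 h and 901.1 to 1543.5 CPM at 6 h. Map2 held most of these sums, with a mean of 1132.7 CPM at 0 h and 1132.9 CPM at 6 h, and was not called. Over the 9 libraries Tubb3, Elavl3 and Rbfox3 averaged 5.18, 12.3 and 3.6 CPM. Dcx and Stmn2, also not called, averaged 0.912 and 0.275 CPM. Of the 5 oligodendrocyte progenitor markers 4 rose (sums 1690.0 to 2287.7 and 2161.5 to 2509.3 CPM), and of the 6 astrocyte markers 3 rose and 1 fell (sums 1612.6 to 1824.0 and 2061.2 to 2271.4 CPM). Of the 5 pericyte and smooth muscle markers 1 rose and 3 fell (sums 56.6 to 101.4 and 35.2 to 49.6 CPM), of the 4 ependymal markers 2 fell (46.3 to 87.2 and 37.8 to 59.8 CPM), and of the 4 endothelial markers 2 fell (3.35 to 5.24 and 1.95 to 3.65 CPM). The part of a changed cell mixture in the results below was not tested, and in bulk RNA fewer cells of a type and less RNA per cell cannot be told apart.

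A few genes held most of the potassium channel mRNA. Per length, as CPM per kb of exon averaged over the 9 libraries, Kcnip3 was highest at 81.4, followed by Kcnc1 at 56.9, Kcnj10 at 33.8, Kcnd3 at 33.1, Kcnj16 at 18.8, Kcnd2 at 18.4 and Kcna2 at 15.5. These 7 genes made up 80.4% of the summed level per length of all 93 members, and Kcnk2 (8.77), Kcnk1 (8.63), Kcnab2 (3.995) and Kcnf1 (3.87) brought the share to 88.3%. Kcnip3 encodes a Ca2+-binding protein that serves both as an accessory subunit of Kv4 channels and as a transcriptional repressor, Kcnc1 a fast Kv3 channel of rapidly firing neurons, Kcnj10 the Kir4.1 channel of astroglia, and Kcnd2 and Kcnd3 the Kv4 channels that carry the transient A-type current. Within this order only 2 steps separated neighbours whose 9-library ranges did not overlap, the one from Kcnd3 to Kcnj16 and the one from Kcnk1 to Kcnab2. On the CPM scale, 5 members averaged at least 100 CPM, 18 at least 10 CPM and 43 at least 1 CPM.

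**Figure D1:**
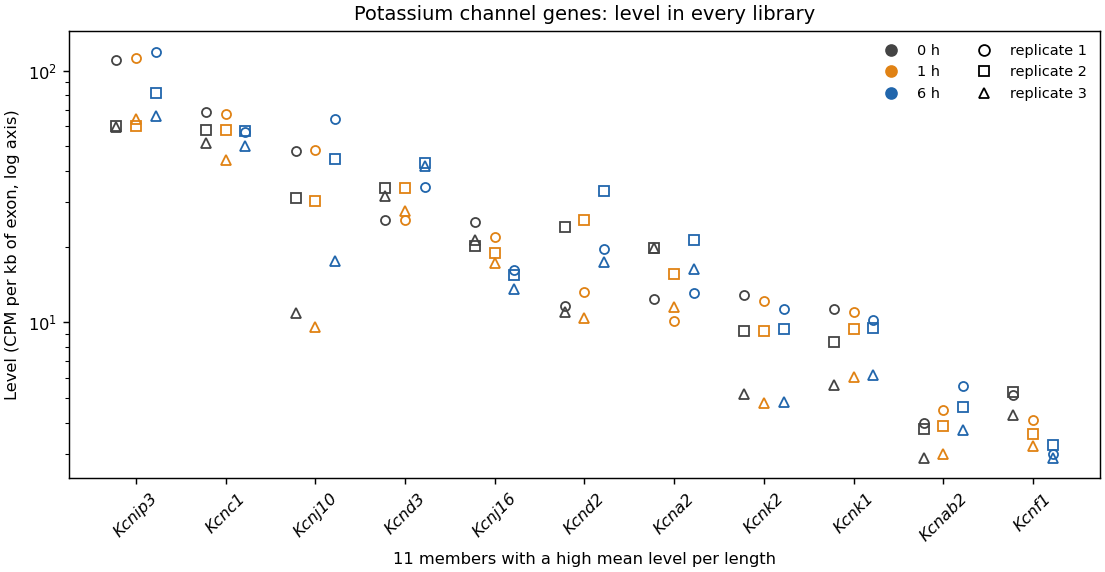
Level of 11 members with a high mean, in CPM per kb of exon on a log axis, with 1 point per library, colours for the 3 times and symbols for the replicate number. Kcnip3 lies at the top with a mean of 81.4, the points of most neighbouring genes overlap, and the 3 replicates of Kcnj10 stay apart at each time.

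The other end of the list was close to silent. The 26 members that were not tested comprised 6 Kcnj, 6 Kcnk, 3 Kcns, 2 each of Kcna, Kcne, Kcng and Kcnmb, and 1 each of Kcnh, Kcnq and Kcnv, and none of them reached more than 18 counts in a library or a mean above 0.108 CPM. All 3 Kcns genes, which encode silent Kv modifiers, were among them, as was Kcnq1. Kcnj1, Kcnk9 and Kcnk16 had 0 counts in 9 of 9 libraries, which allows up to 3 counts per library, or 0.0284 to 0.0455 CPM (counting error only).

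Many of these genes differed between replicate numbers. With time point in the model, 51 of the 67 tested members (76.1%) differed between the 3 replicate numbers at an adjusted p under 0.05 in edgeR's quasi-likelihood test, against 56.8% of all tested genes, and the highest replicate was number 1 for 21 of them, number 2 for 19 and number 3 for 11. The most uneven gene was Kcnb2, a delayed rectifier, with mean levels over the 3 times of 0.0748, 1.97 and 0.0405 CPM, and at 0 h with 4, 133 and 2 counts. Kcnh8 had means of 0.688, 8.01 and 2.79 CPM and Kcna1 of 1.07, 2.20 and 0.195 CPM, whereas among abundant genes Kcnj10 stood at 289, 191 and 68.5 CPM. The highest replicate exceeded the lowest at least 4-fold in 15 tested members, with a median of 1.80-fold. Time was compared within replicate numbers (a replicate block). The total counts of member calls are given without the block too, with adjusted p-values for some single genes. What the replicates share was not tested.

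**Figure D2:**
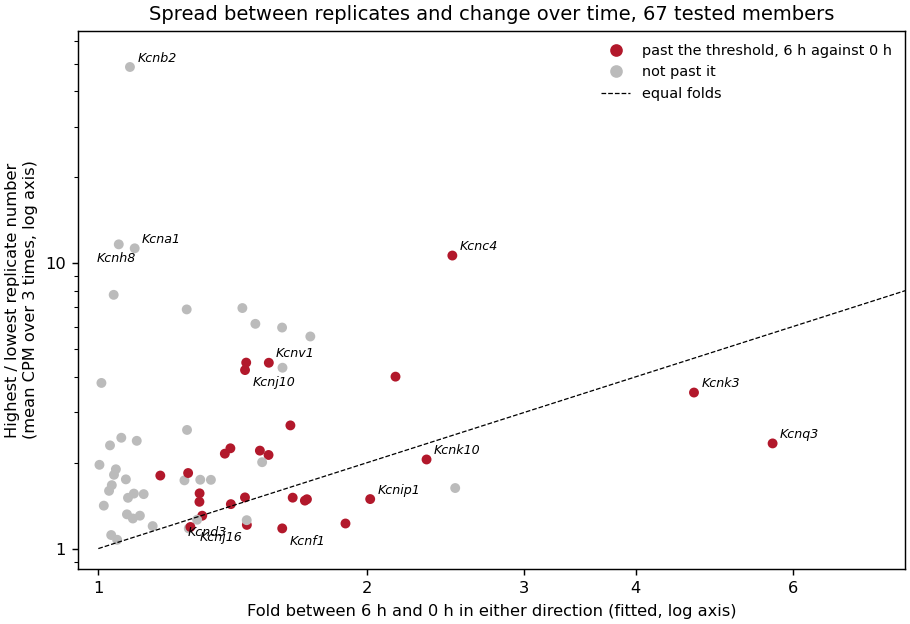
For each of the 67 tested members, the ratio of the highest to the lowest replicate (mean CPM over 3 times, y axis, log) against the fitted fold between 6 h and 0 h in either direction (x axis, log), with the dashed line at equal folds and red for an adjusted p under 0.05. Kcnb2 lies at 48.7-fold between replicates, and of the 28 red genes 16 lie above the line.

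At 1 h after EGF withdrawal few members had changed. Kcnj2, which encodes the strong inward rectifier Kir2.1, rose, and Kcna2, a Kv1 channel of axons, and Kcnf1, a silent modifier of Kv2 channels, fell. These 3 of 67 tested members are 4.48%, against 3.51% of all tested genes (1.36% higher and 2.14% lower), a share near the background. Without the replicate block 0 members were called at 1 h, and 0.0424% of all genes were called. An unadjusted p under 0.05 in that fit was found for 3 of 67 tested members and 735 of 18858 tested genes, similar shares. DESeq2 with the block called 1 member higher and 3 lower, and 359 higher and 576 lower of the 48526 genes entered.

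Kcnj2 stood at 3.48, 5.11 and 4.34 CPM at 0 h, at 7.87, 13.2 and 7.94 CPM at 1 h, and at 2.88, 3.87 and 3.18 CPM at 6 h. The 1 h libraries were all above the others and did not overlap with them, and within each replicate number 6 h was the lowest time. The fitted change was 1.15 ± 0.11 (log2, SE) at 1 h, or 2.22-fold higher (edgeR with the block, adjusted p = 4.59e-05, higher in 3 of 3 replicates; 0.436 without the block). At 6 h Kcnj2 was 2.88-fold below 1 h (adjusted p = 5.46e-07, and 0.0256 without the block), and -0.38 ± 0.11 on the log2 scale against 0 h (adjusted p = 0.0189). That last call was lost without 0 h replicate 3 or without 6 h replicate 2 (log2 change -0.28 in both, adjusted p = 0.13 and 0.131).

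Kcna2 showed the opposite transient. It stood at 148, 235 and 236 CPM at 0 h, at 120.0, 185 and 138 CPM at 1 h, and at 155, 254 and 194 CPM at 6 h. The groups overlapped, but each replicate was lowest at 1 h. The log2 change was -0.48 ± 0.08 at 1 h (edgeR with the block, adjusted p = 0.0045, and 1 without it), 0.44 ± 0.08 between 1 h and 6 h (adjusted p = 0.000864, and 0.407 without the block), and -0.04 ± 0.08 between 0 h and 6 h (adjusted p = 0.735).

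Kcnf1 fell at 1 h and was lower again at 6 h. Its values were 24.8, 25.3 and 20.5 CPM at 0 h, 19.6, 17.3 and 15.5 CPM at 1 h and 14.3, 15.6 and 13.8 CPM at 6 h, so that all libraries of 1 h and 6 h lay below those of 0 h. The log2 change was -0.43 ± 0.07 at 1 h (edgeR with the block, adjusted p = 0.00492), a call lost without 0 h replicate 2 (adjusted p = 0.0643) and without the block (0.879). At 6 h it was -0.68 ± 0.07 (adjusted p = 1.42e-05), and this was the sole call against 0 h that also held without the block (adjusted p = 0.0339). Between 1 h and 6 h the change was -0.26 ± 0.07 (adjusted p = 0.0147), a call lost without 1 h replicate 1 or without 6 h replicate 1 (adjusted p = 0.1 and 0.104) and without the block (0.32).

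The 250 bases before the RefSeq start of each of these 3 genes are shown because they are the members with an early change. The sequences are from RefSeq (GRCm38.p6), 5′ to 3′ on the gene's strand, and capitals mark a GC box (GGGCGG on either strand). Kcnj2 (chr11:111065914-111066163, plus strand) starts where GENCODE M21 places the gene, Kcna2 is chr3:107101317-107101566 (plus strand) and Kcnf1, a gene of a single exon block, is chr12:17176889-17177138 (minus strand). GENCODE M21 places the start of Kcna2 at base 107101146, so its window lies inside the annotated gene.
Kcnj2: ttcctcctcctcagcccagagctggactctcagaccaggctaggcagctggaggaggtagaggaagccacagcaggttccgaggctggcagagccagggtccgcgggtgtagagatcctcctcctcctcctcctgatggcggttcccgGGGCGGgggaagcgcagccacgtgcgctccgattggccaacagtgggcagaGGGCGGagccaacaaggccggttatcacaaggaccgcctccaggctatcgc
Kcna2: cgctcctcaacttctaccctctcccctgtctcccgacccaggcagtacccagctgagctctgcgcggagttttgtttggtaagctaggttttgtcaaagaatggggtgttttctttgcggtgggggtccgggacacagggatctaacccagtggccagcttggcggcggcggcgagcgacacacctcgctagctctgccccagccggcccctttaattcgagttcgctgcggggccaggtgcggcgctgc
Kcnf1: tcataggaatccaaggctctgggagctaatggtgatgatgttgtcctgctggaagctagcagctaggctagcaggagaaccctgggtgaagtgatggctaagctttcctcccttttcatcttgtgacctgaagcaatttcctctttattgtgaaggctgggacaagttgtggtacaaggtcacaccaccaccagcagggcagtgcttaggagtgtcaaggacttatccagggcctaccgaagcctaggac
The Kcnj2 window held 2 GC boxes, whose nearest bases lie 97 and 46 bases before the start, and the windows of Kcna2 and Kcnf1 held 0. A GC box is found in 32.7% of all 32851 promoter windows of this length in the table, and in 45.2% of the 93 windows that belong to 68 matched members. The other letters searched on both strands were TGACGTCA (cyclic AMP response element, 1.55% of all windows), its overlapping short form TGACG (17.8%), TGANTCA (AP-1, 6.75%), GCGNGGGCG (EGR, 4.7%, which can overlap a GC box), TATAAA (12.4%) and the CArG box by name (1.47%), and none of them was present in these 3 windows, which says only that these letters are not there.

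By 6 h more members had changed, and more of them were higher than lower. Of the 67 tested members 18 rose and 10 fell against 0 h, which is 41.8% against 34.9% of all tested genes; 26.9% were higher against 17.4%, and 14.9% were lower against 17.5%. Against 1 h, 18 rose and 10 fell, against 35.6% of all genes (18.0% higher and 17.5% lower), and 25 of the 28 calls were the same genes with the same sign. The 2 comparisons share the 6 h libraries. With GC content and length trends removed and the block kept, 16 members were higher and 13 lower against 0 h. That made 55.2% of the calls higher, in place of 64.3%. The median log2 change of the tested members at 6 h against 0 h was 0.10, with -7.69e-05 for all tested genes, and the median absolute change was 0.38 against 0.20. Without the replicate block 1 member was called at 6 h against 0 h (Kcnf1, lower) and 1 against 1 h (Kcnj2, lower), with 2.42% and 2.14% of all genes called. The other 27 calls at 6 h against 0 h had adjusted p-values between 0.0557 and 0.84 without the block. In that fit an unadjusted p under 0.05 was found for 11 and 12 of 67 tested members. The same was true of 3373 and 3335 of 18858 tested genes, similar shares. DESeq2 with the block called 17 members higher and 9 lower in both comparisons. Of the 48526 genes entered, it called 2922 higher and 3154 lower against 0 h, and 2951 and 3234 against 1 h. Non-overlap of the 3 libraries of each time, which ignores the pairing, was seen in 8 higher (11.9%) and 5 lower (7.46%) members, against 12.8% and 12.1% of all tested genes. Each of the 28 calls against 0 h had its direction in 3 of 3 replicates, and 18 of them held when any of the 9 libraries was left out.

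**Figure D3:**
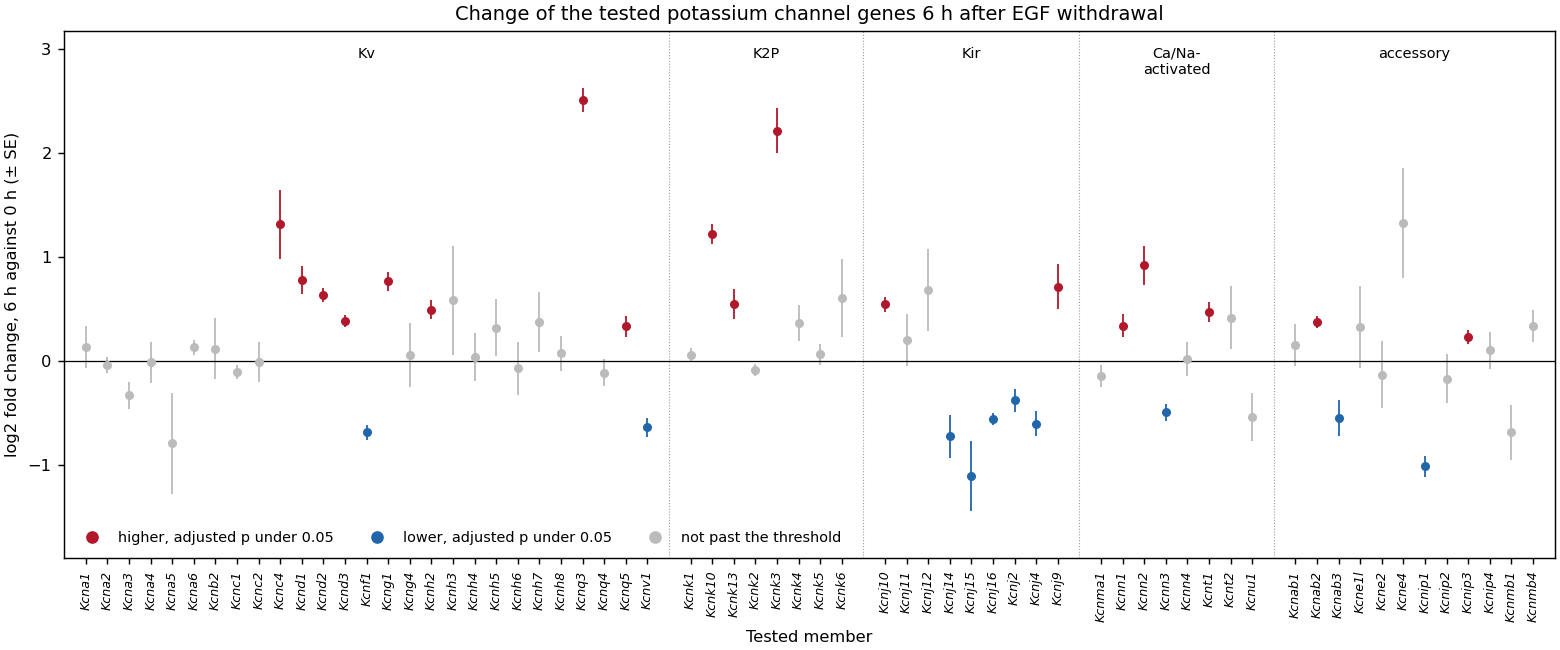
Log2 fold change at 6 h against 0 h of 64 of the 67 tested members, grouped by class, with the standard error from the fit with the replicate block, red for higher and blue for lower at an adjusted p under 0.05 and grey otherwise. Kcnq3 (2.51) and Kcnk3 (2.22) lie highest, all 3 Kcnd genes are red, and 5 of the 7 called Kcnj genes are blue.

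Of the 30 tested Kv subunits, 8 rose and 2 fell at 6 h, or 33.3% called against 34.9% of all tested genes, a share near the background. The gene with the highest fold was Kcnq3, which encodes a subunit of the M-current channels that damp repetitive firing. Its values were 1.35, 3.68 and 1.39 CPM at 0 h, 1.42, 3.21 and 1.11 CPM at 1 h, and 8.07, 18.5 and 8.91 CPM at 6 h, and the 6 h libraries all lay above the rest. The log2 change was 2.51 ± 0.11, or 5.69-fold (edgeR with the block, adjusted p = 1.31e-08; 0.0663 without it). Kcnq5, a related subunit, changed by 0.33 ± 0.10 (adjusted p = 0.0198), a call lost without replicate 2 or 3 of 0 h, or replicate 3 of 6 h (adjusted p up to 0.132). Per length, the level of Kcnq3 divided by that of Kcnq5 in the same library was 0.0489, 0.246 and 0.0985 at 0 h and 0.255, 1.04 and 0.43 at 6 h.

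All 3 Kcnd genes rose at 6 h against 0 h, while 17.4% of all tested genes were higher. A difference from other genes was not tested. Kcnd1 stood at 2.09, 3.2 and 1.57 CPM at 0 h, 2.25, 2.84 and 2.1 CPM at 1 h, and 4.03, 4.27 and 3.25 CPM at 6 h. Kcnd2 stood at 59.5, 123 and 56.4 CPM at 0 h, 67.8, 132 and 53.6 CPM at 1 h, and 101, 170.4 and 89.7 CPM at 6 h. Kcnd3, the most abundant, stood at 245, 326 and 305 CPM at 0 h, 245, 328 and 266 CPM at 1 h, and 329, 413 and 401 CPM at 6 h. For Kcnd1 and Kcnd3 the 6 h libraries did not overlap with 0 h, whereas for Kcnd2 they did, with replicate 2 high at each time. The log2 changes against 0 h were 0.78 ± 0.13, 0.63 ± 0.07 and 0.39 ± 0.06 (edgeR with the block, adjusted p = 0.000664, 1.6e-05 and 0.000158, and 0.192, 0.55 and 0.229 without it), and at 1 h none was called. Kcnd3 shares exon sequence with the antisense gene Kcnd3os, and whether the counting used strand is not given in the sources used here.

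Of the 4 Kcnip genes, whose products are auxiliary subunits of Kcnd channels, 1 rose and 1 fell. Among all tested genes 17.4% rose and 17.5% fell. Kcnip1, a Ca2+ sensor subunit of Kv4 channels, stood at 7.05, 4.24 and 5.87 CPM at 0 h, 7.14, 5.37 and 5.6 CPM at 1 h, and 3.5, 2.25 and 2.73 CPM at 6 h, with all 6 h libraries below the others. It fell by 1.01 ± 0.10 on the log2 scale (edgeR with the block, adjusted p = 1.05e-05; 0.0704 without the block), or 2.02-fold lower. Kcnip3, the member with the highest level per length, stood at 390.5, 214 and 211 CPM at 0 h and at 422, 288 and 233 CPM at 6 h, and its change of 0.23 ± 0.07 (adjusted p = 0.0193) was lost without replicate 2 or 3 of 0 h, or replicate 2 of 6 h (adjusted p up to 0.12) and after removal of GC content and length trends (adjusted p = 0.0718). Kcnip2 (-0.17, adjusted p = 0.62) and Kcnip4 (0.10, adjusted p = 0.696) were not called. Dpp6, which encodes another auxiliary protein of these channels and is no member, rose by 0.52 ± 0.07 (adjusted p = 0.000132; 0.55 without the block), and Dpp10 had a change of 0.47 ± 0.22 (adjusted p = 0.108).

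The windows before the RefSeq starts of Kcnd2 (chr6:21215096-21215345, plus strand) and Kcnd3 (chr3:105451640-105451889, plus strand) are shown because these subunits of a single channel type rose together.
Kcnd2: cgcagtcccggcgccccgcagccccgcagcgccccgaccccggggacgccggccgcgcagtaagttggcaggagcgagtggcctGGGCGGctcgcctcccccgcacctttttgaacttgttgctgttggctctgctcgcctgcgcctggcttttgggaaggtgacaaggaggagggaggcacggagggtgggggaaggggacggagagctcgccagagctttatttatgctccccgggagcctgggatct
Kcnd3: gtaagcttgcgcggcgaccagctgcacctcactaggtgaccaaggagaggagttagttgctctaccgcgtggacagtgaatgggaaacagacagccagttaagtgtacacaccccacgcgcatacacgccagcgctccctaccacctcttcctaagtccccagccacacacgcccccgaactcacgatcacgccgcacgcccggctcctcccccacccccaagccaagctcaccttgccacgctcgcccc
The Kcnd2 window held 1 GC box (nearest base 161 bases before the start) and the Kcnd3 window held 0, and neither held any of the other motifs. The start used by RefSeq lies upstream of the gene start in GENCODE M21 for both genes.

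**Figure D4:**
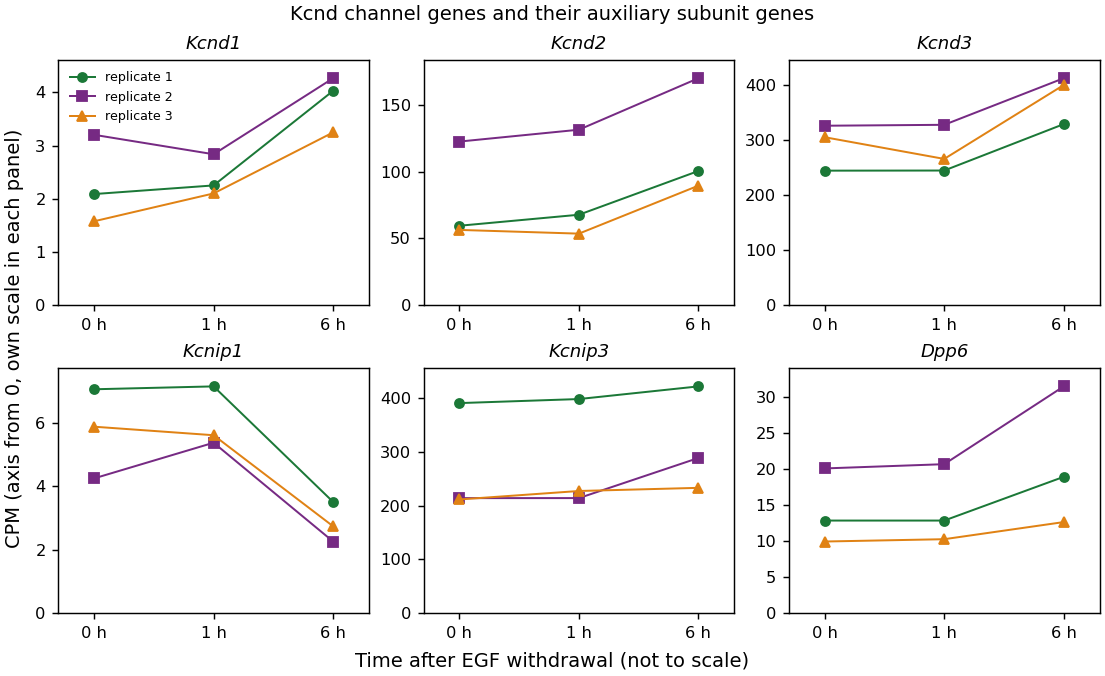
CPM in each library by time for the 3 Kcnd genes, Kcnip1, Kcnip3 and Dpp6, with lines joining libraries of the same replicate number and each axis from 0. Every line of the Kcnd genes ends higher at 6 h than at 0 h and every line of Kcnip1 ends lower.

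Silent modifier genes were called in both directions. Kcng1 stood at 4.49, 3.47 and 5.35 CPM at 0 h, 4.31, 3.5 and 5.13 CPM at 1 h, and 8.55, 5.81 and 8.34 CPM at 6 h, without overlap between 6 h and 0 h, and rose by 0.77 ± 0.09 (edgeR with the block, adjusted p = 3.87e-05; 0.126 without the block). Kcnv1 stood at 10.8, 3.2 and 13.1 CPM at 0 h and 7.69, 1.9 and 8.1 CPM at 6 h, and fell by 0.63 ± 0.09 on the log2 scale (adjusted p = 0.000163; 0.763 without the block), each replicate being lower although the groups overlapped. Kcnf1 is described above. These subunits form no channel of their own and assemble with Kv2 subunits. Kcnh2, the ERG channel, stood at 8.85, 6.73 and 11.2 CPM at 0 h and 14.3, 10.3 and 12.7 CPM at 6 h, and rose by 0.49 ± 0.09 (adjusted p = 0.00116; 0.324 without the block). Kcnc4 had 43, 13 and 1 counts at 0 h and 98, 40 and 13 counts at 6 h (1.32 ± 0.33, adjusted p = 0.00771), a call lost without 6 h replicate 1 (adjusted p = 0.0633).

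The remaining Kv genes gave no call at 6 h against 0 h. None of the 6 tested Kcna genes passed the threshold, with log2 changes of -0.79 (Kcna5) to 0.14 (Kcna1). Kcnc1, next to Kcnip3 the most abundant gene per length, stood at 646, 551 and 489 CPM at 0 h and 539, 544 and 473 CPM at 6 h, with a change of -0.11 ± 0.07 (edgeR with the block, adjusted p = 0.249). Kcna4 was called between 1 h and 6 h alone (-0.51 ± 0.19, adjusted p = 0.047), and the call was lost with DESeq2 (adjusted p = 0.0805), with library totals (adjusted p = 0.0654), and in 6 of the 9 fits without a library (those without a 1 h library, without the third 0 h replicate, or without the second or the third 6 h replicate; adjusted p up to 0.266).

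Of 9 tested inward rectifier (Kcnj) genes 2 rose and 5 fell at 6 h, or 77.8% called against 34.9% of all tested genes. A difference from the other classes was not tested, and 1 rise (Kcnj10) and 2 falls (Kcnj4 and Kcnj16) held when any library was left out. Kcnj10 (Kir4.1), the chief K+ uptake channel of astrocytes, stood at 259, 168 and 58.8 CPM at 0 h, 262, 165 and 51.6 CPM at 1 h, and 347, 241 and 95.1 CPM at 6 h. The groups overlapped, with replicate 1 high and replicate 3 low at each time, and within each replicate 6 h was the highest. The change was 0.55 ± 0.07 (edgeR with the block, adjusted p = 7.68e-05; 0.811 without it). Kcnj16 (Kir5.1), which forms no channel alone and assembles with Kir4.1, stood at 98.7, 79 and 83.6 CPM at 0 h, 85.8, 74.3 and 67.9 CPM at 1 h, and 63.6, 60.8 and 53.4 CPM at 6 h. All its 6 h libraries were below those of 0 h, and it fell by 0.55 ± 0.06 on the log2 scale (adjusted p = 1.52e-05; 0.0557 without the block). Per length, the ratio of Kcnj10 to Kcnj16 was 1.91, 1.55 and 0.512 at 0 h, 2.22, 1.61 and 0.553 at 1 h, and 3.97, 2.89 and 1.3 at 6 h, higher at 6 h in each replicate. The astrocyte markers Slc1a2, Slc1a3 and Aldoc rose over the same interval by 0.36, 0.31 and 0.31, Gfap fell, and Aqp4 had a change of 0.14 (adjusted p = 0.491).

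The window before the RefSeq start of Kcnj10 (chr1:172340960-172341209, plus strand), the inward rectifier with the highest level, is shown with GC boxes in capitals, written here on the opposite strand as CCGCCC.
Kcnj10: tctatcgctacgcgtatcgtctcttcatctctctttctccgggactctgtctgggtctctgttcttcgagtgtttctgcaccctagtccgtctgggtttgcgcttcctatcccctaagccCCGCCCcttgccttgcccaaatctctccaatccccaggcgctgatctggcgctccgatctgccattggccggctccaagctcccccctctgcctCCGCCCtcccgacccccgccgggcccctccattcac
It held 2 GC boxes, the nearer of which ends 31 bases before the start, and none of the other motifs.

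**Figure D5:**
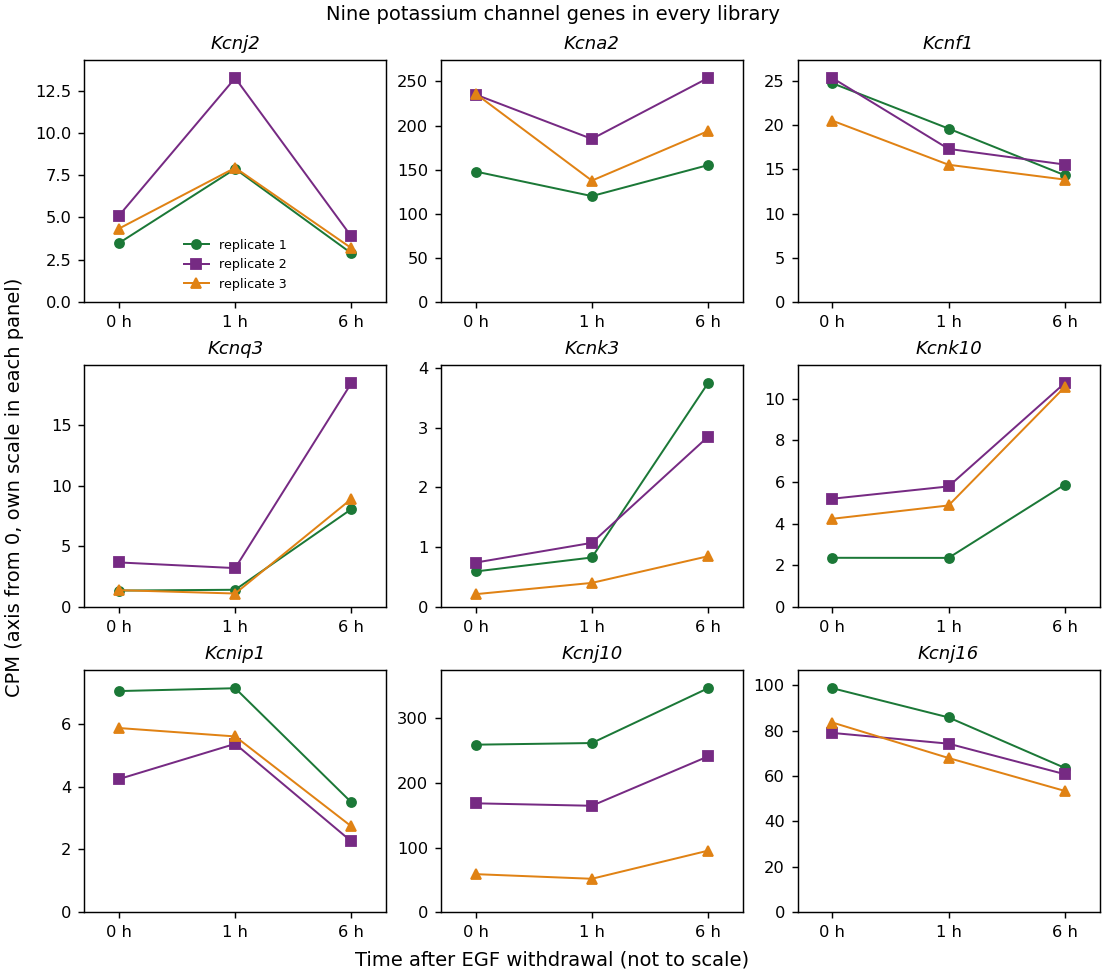
CPM in each library for 9 members, with lines joining libraries of the same replicate number over time and each axis from 0. Kcnj2 peaks and Kcna2 dips at 1 h in each replicate, Kcnq3, Kcnk3 and Kcnk10 are highest at 6 h in each, and Kcnj10 and Kcnj16 end on opposite sides of their starting values.

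Of the 4 tested Kir2 genes 3 fell at 6 h against 0 h, while 17.5% of all tested genes were lower. A difference from other genes was not tested. Kcnj4 (Kir2.3) stood at 3.65, 1.81 and 4.45 CPM at 0 h and 2.1, 1.34 and 3.02 CPM at 6 h, and fell by 0.60 ± 0.12 on the log2 scale (edgeR with the block, adjusted p = 0.00155; 0.52 without the block). Kcnj14 (Kir2.4) stood at 0.898, 0.757 and 1.15 CPM at 0 h and 0.638, 0.341 and 0.737 CPM at 6 h (-0.72 ± 0.21, adjusted p = 0.0166), a call lost without replicate 2 or 3 of 0 h, or replicate 2 of 6 h (adjusted p up to 0.087). Kcnj2 is described above, and the remaining Kir2 gene tested, Kcnj12, had between 0.0276 and 0.439 CPM and a change of 0.68 ± 0.39 (adjusted p = 0.199). Kcnj15 (Kir4.2), with 48, 26 and 14 counts at 0 h and 21, 22 and 5 at 6 h, had a change of -1.11 ± 0.34 (adjusted p = 0.0217) that 4 of the 9 fits without a library kept, those without a 1 h library and that without 6 h replicate 2, and that DESeq2 did not call (adjusted p = 0.0556). Kcnj9, a subunit of G protein-activated channels, stood at 1.89, 0.878 and 0.387 CPM at 0 h and 2.81, 1.13 and 1.11 CPM at 6 h (0.71 ± 0.22, adjusted p = 0.0215), a call lost without replicate 3 of 0 h, or replicate 1 or 3 of 6 h (adjusted p up to 0.109).

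Of the 8 tested K2P genes 3 rose and 0 fell, or 37.5% called against 34.9% of all tested genes. Kcnk3 (TASK-1), an acid-sensitive leak channel, stood at 0.594, 0.743 and 0.215 CPM at 0 h, 0.828, 1.07 and 0.403 CPM at 1 h, and 3.75, 2.85 and 0.849 CPM at 6 h, without overlap between 6 h and 0 h. It was 4.65-fold higher (2.22 ± 0.21, edgeR with the block, adjusted p = 7.1e-06; 0.114 without it), from 43, 55 and 15 counts at 0 h. Kcnk10 (TREK-2), a leak channel opened by stretch and lipids, stood at 2.36, 5.2 and 4.24 CPM at 0 h, 2.36, 5.79 and 4.88 CPM at 1 h, and 5.88, 10.8 and 10.6 CPM at 6 h, and was 2.33-fold higher (1.22 ± 0.10, adjusted p = 1.3e-06; 0.168 without the block). Kcnk13 stood at 6.58, 3.42 and 1.16 CPM at 0 h and 7.25, 6.48 and 1.83 CPM at 6 h (0.55 ± 0.15, adjusted p = 0.0106), a call lost without replicate 2 or 3 of 0 h, or replicate 2 of 6 h (adjusted p up to 0.1). The K2P genes with the highest levels were not called, with changes of -0.09 ± 0.05 for Kcnk2 (TREK-1, adjusted p = 0.253) and 0.06 ± 0.07 for Kcnk1 (adjusted p = 0.566). Kcnk4 was called between 1 h and 6 h alone (0.86 ± 0.18, adjusted p = 0.00251) and shares exon bases with Catsperz on the same strand, so its counts are uncertain.

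Of the 8 tested Ca2+- or Na+-activated channel genes 3 rose and 1 fell, or 50.0% called against 34.9%. Kcnn1, Kcnn2 and Kcnn3, which encode small-conductance Ca2+-activated (SK) channels, went in both directions. Kcnn3, the most abundant of them, stood at 27.2, 42.8 and 20 CPM at 0 h and 19, 29.3 and 15 CPM at 6 h, and fell by 0.49 ± 0.08 on the log2 scale (edgeR with the block, adjusted p = 0.000577; 0.605 without the block). Kcnn2 stood at 0.65, 0.73 and 0.472 CPM at 0 h, 0.797, 0.865 and 0.751 CPM at 1 h, and 0.991, 1.33 and 1.17 CPM at 6 h, without overlap between 6 h and the other times, and rose by 0.92 ± 0.19 (adjusted p = 0.0022; 0.0742 without the block). Kcnn1 (0.34 ± 0.11, adjusted p = 0.0341) lost its call without replicate 2 or 3 of 0 h, or replicate 2 or 3 of 6 h (adjusted p up to 0.177) and with DESeq2 (adjusted p = 0.0663). Kcnt1, the Na+-activated Slack channel, stood at 6.36, 9.2 and 3.91 CPM at 0 h and 8.2, 11.7 and 6.39 CPM at 6 h, and rose by 0.47 ± 0.10 (adjusted p = 0.00226; 0.663 without the block). Kcnma1, the BK channel, had a change of -0.14 ± 0.10 (adjusted p = 0.32).

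Of the 12 tested accessory genes 2 rose (Kcnab2 and Kcnip3) and 2 fell (Kcnab3 and Kcnip1), or 33.3% called against 34.9%. Kcnab2, a cytoplasmic beta subunit of Kv1 channels, stood at 22.2, 21.1 and 16.1 CPM at 0 h and 31.1, 25.6 and 20.8 CPM at 6 h, each replicate being higher, and rose by 0.38 ± 0.06 (edgeR with the block, adjusted p = 0.000395; 0.379 without the block). Kcnab3 fell by 0.55 ± 0.17 on the log2 scale (adjusted p = 0.0247), a call lost without replicate 1 or 3 of 0 h, or replicate 1 or 2 of 6 h (adjusted p up to 0.148), and it shares exon bases with the antisense gene Kcnab3os. Other called members that share exon bases with an annotated gene on the opposite strand are Kcnj9, Kcnj15, Kcnk3, Kcnn1, Kcnn2 and Kcnq5, and Kcnab2 does so with Gm16334 on its own strand, so reads of these pairs could not be separated here. None of the 3 tested Kcne or the 2 tested Kcnmb genes was called.

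Some called members are neighbours in the genome. Kcnj9 and Kcnj10 lie 11.9 kb apart on chromosome 1 and both rose at 6 h, and Kcnj16 and Kcnj2 lie 38.2 kb apart on chromosome 11 and both fell at 6 h, whereas at 1 h Kcnj2 rose and Kcnj16 had a change of -0.20 ± 0.06 (edgeR with the block, adjusted p = 0.0898). Kcnmb1 lies within Kcnip1. The 18 genes that rose had a median length of 60.1 kb (8.82 to 563.5 kb) and a median transcript GC content of 54.7%, the 10 that fell 16.1 kb (4.79 to 363.8 kb) and 47.1%, and the 39 not called 32.4 kb and 51.4%. The ranges of length overlap, these are descriptions, and their part in the result was not tested. After each library's dependence on GC content and length had been removed, with the block kept, 16 members were higher and 13 lower at 6 h against 0 h. The share of all tested genes called in that setting is not reported here.

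Genes that work alongside potassium channels were listed with earlier results of these data known. Of 31 such genes 22 were tested, and at 6 h against 0 h 9 rose and 4 fell, with a median log2 change of 0.16. The share called was 59.1%, against 34.9% of all genes, and without the block 12 of these 13 calls were lost, with adjusted p-values between 0.107 and 0.815. Of the 7 subunit genes of the Na+/K+ pump, which builds the K+ gradient, Atp1b2, a glial isoform, rose by 0.88 ± 0.07 (edgeR with the block, adjusted p = 2.39e-06), and Atp1b1 fell by 0.54 ± 0.07 on the log2 scale (adjusted p = 1e-04). Of 5 tested cation-chloride cotransporters, Slc12a2 and Slc12a5 fell by 0.37 and 0.34 on the log2 scale. Rest, which encodes a repressor of neuronal genes including channel genes, stood at 68.3, 59.7 and 63.7 CPM at 0 h and 53.9, 46.2 and 53.2 CPM at 6 h and fell by 0.32 ± 0.05 on the log2 scale (adjusted p = 0.000548). Amigo1 rose by 0.27 and Hcn3 by 0.30. Some of these calls rested on single libraries. At 6 h the call of Amigo1 was lost without 0 h replicates 1 or 3, or 6 h replicate 2 (adjusted p up to 0.0735), that of Slc12a5 without 0 h replicates 1 or 3, or 6 h replicate 1 (up to 0.0856), and that of Hcn3 without 0 h replicates 2 or 3 or any 6 h library (up to 0.132). Hcn3 also lost its call after removal of GC content and length trends (adjusted p = 0.131). None of the 4 gamma subunit genes of BK channels was tested.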

How the data were processed

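Total RNA from the 9 cultures was sequenced by the authors as paired-end stranded mRNA libraries, aligned to mm10 (GRCm38) and counted on Ensembl genes with STAR 2.5.3a; FastQC and DESeq2 1.22.1 are also named in the submitters' processing notes. The authors deposited raw counts of reads per gene, not normalised, and the strand setting of the counting is not given in the sources used here. Counts do not separate transcripts with and without introns.

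Of the 48526 identifiers, 48144 matched GENCODE M21, the source of symbols, positions, exon lengths and overlaps. The 5 genes with a Kcn symbol that are not protein coding were left out. Genes were kept with filterByExpr (minimum count 10, minimum total 15) and scaled with TMM (factors 0.972 to 1.02). The quasi-likelihood test of edgeR 4.0.16 (glmQLFit, glmQLFTest) in R 4.3.3 was run on 9 libraries with time point and replicate number as factors, and p-values were adjusted by the Benjamini-Hochberg method over 18858 genes (threshold 0.05). Standard errors were derived from the F statistic. Lowest chi-square per degree of freedom between replicates of the same time was 83.0, so no library was entered again as another replicate of its time. Libraries of different times were not compared in this way. The fit was tested on simulated data. Limma 3.58.1, DESeq2 1.42.0, Python 3.11.15, pandas 2.3.3, numpy 2.4.6 and matplotlib 3.10.9 were also used. Counts between 65871454 and 105592597 per library set the precision, which is lowest for genes with few reads.

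Replicate numbers come from the labels. After subtracting time point means, libraries with the same number correlated at 0.733 to 0.80 (9 pairs) and others at -0.462 to -0.314 (18 pairs). The subtraction makes deviations cancel within a time point, so the negative values are no separate evidence. That the numbers pair the samples rests on the positive values.

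The members, gene lists, tests and most alternatives were chosen with earlier results of these data known. Any member or partner gene past the threshold could be named; values of every library are given for up to 12 members in each direction with the largest change at 6 h, for members called at 1 h and for abundant members. Kcnb2, Kcnh8, Kcna1 and the non-called genes given as comparisons were chosen after their values were seen. Alternatives were no replicate block, DESeq2, RLE scaling, library totals, no filter, a mean of at least 1 CPM, only the 6 libraries compared, GC content and length trends removed, stricter thresholds and leaving out each library. Protein sequences were not used here. Results of some single genes of the lists are not reported here.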

Additional observations from a re-analysis of the deposited data

Results flagged for a closer look

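Kcnj2, Kcnj4 and Kcnk4 lay on opposite sides of their 0 h level at 1 h and at 6 h in 3 of 3 replicates, and the difference between the times was past the threshold in edgeR with the replicate block. For Kcnj2 the log2 fold change at 6 h against 1 h was -1.53 (adjusted p = 5.46e-07), after a rise at 1 h. For Kcnj4 it was -0.711 (adjusted p = 0.000473) and for Kcnk4 0.862 (adjusted p = 0.00251), while the 1 h changes of both against 0 h were not called (adjusted p = 0.658 and 0.184). Without the block the adjusted p at 6 h against 1 h was 0.0256 for Kcnj2, 0.447 for Kcnj4 and 0.109 for Kcnk4. Groups of 3 libraries were too small for the check for single outlying libraries.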

How the results depend on the processing

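The replicate block decides the number of calls. With it 3, 28 and 28 members were called at 1 h against 0 h, 6 h against 0 h and 6 h against 1 h, and without it 0, 1 and 1. The common biological coefficient of variation was 0.0627 with the block and 0.277 without. With GC content and length trends removed and no block (a setting chosen after seeing the data) the counts were 0, 1 and 2. At 1 h, 6 members were called with no filter on low counts and 1 with a log2 fold limit of 0.5. Leaving out 1 library gave between 2 and 4, between 20 and 34, and between 21 and 28 members in the 3 comparisons.

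For the partner genes, 1, 13 and 11 were called with the block, and 0, 1 and 0 without it, or 0, 0 and 0 with GC content and length trends also removed. Leaving out 1 library gave between 0 and 2, between 8 (without 0 h replicate 3) and 14, and between 9 and 11. At 1 h DESeq2, library totals, no filter and GC content and length trends removed with the block each gave 2, and an adjusted p under 0.01, a fold limit of 0.5 and leaving out replicate 1 or replicate 2 at all 3 times (also chosen after seeing the data) gave 0. At 6 h against 0 h an adjusted p under 0.01 gave 8 and the fold limit 5, and at 6 h against 1 h the fold limit gave 3. Depth limits the 26 members that were not tested and calls that rest on few reads, such as Kcnc4 and Kcnj15. No called change of a named gene changed sign under these alternatives.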
